A study of Mus musculus with 18 samples.

Results

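The 10 transcription factors described here act in mesenchymal cells and in epithelial-mesenchymal transition (EMT), and their levels were compared across mouse nerve sheath tumours and normal nerve. They are the paralog pairs Snai1 and Snai2, Twist1 and Twist2, Zeb1 and Zeb2, Prrx1 and Prrx2, and Meox1 and Meox2. They were taken by gene symbol from the gene-level count table, which held all 10 of them among 51290 genes. RNA sequencing covered 18 samples in 3 groups of 6. The malignant peripheral nerve sheath tumours (MPNST) came from 6 mice that were Nf1 flox/flox and Arf flox/flox and also PostnCre+, in which Cre driven by the periostin (Postn) promoter can delete both Nf1 and Arf. The plexiform neurofibromas came from trigeminal nerve of Nf1 flox/flox PostnCre+ mice, and the normal nerves from trigeminal nerve of Nf1 flox/flox PostnCre- mice. All 3 groups thus carry floxed Nf1. By these genotypes the normal nerves differ from the neurofibromas in Cre, and from the MPNST in both Cre and floxed Arf. The labels give no body site for the MPNST and no ages, and they mark the neurofibroma and nerve samples as coming from an earlier series. A difference between MPNST and the other groups therefore cannot be told apart from one of Arf genotype, site or series.

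Snai1 (Snail) and Snai2 (Slug) are zinc-finger repressors that bind E-boxes, the DNA word CANNTG, and shut down epithelial genes such as Cdh1 (E-cadherin). Zeb1 and Zeb2 are zinc-finger homeodomain proteins that repress the same genes, and Zeb2 is also needed by Schwann cells to mature and to myelinate. Twist1 and Twist2 are basic helix-loop-helix (bHLH) factors that work as dimers with E proteins. Prrx1 and Prrx2 are paired-related homeodomain factors of limb and face mesenchyme and of fibroblasts, and Meox1 and Meox2 are homeodomain factors of somites and other mesoderm. Several of these genes are active in the migrating neural crest, the embryonic source of Schwann cells.

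Because the Snail, Zeb and Twist proteins themselves bind E-boxes, the RefSeq promoters of the factors (mouse build GRCm38.p6) were searched for that word over the 250 bases before the gene's start. Of the 10 factors, 7 had a promoter in the table. An E-box was found before Snai1 and before Meox2. No E-box was found in this window before Twist1, Twist2, Prrx1, Prrx2 or Zeb2. Shown here are both promoters that hold the word, with the E-box in capitals, and the promoters of Twist1 and Prrx1, 2 of the factors called higher in MPNST, which hold none.
Snai1 (chr2:167537945-167538194, plus strand): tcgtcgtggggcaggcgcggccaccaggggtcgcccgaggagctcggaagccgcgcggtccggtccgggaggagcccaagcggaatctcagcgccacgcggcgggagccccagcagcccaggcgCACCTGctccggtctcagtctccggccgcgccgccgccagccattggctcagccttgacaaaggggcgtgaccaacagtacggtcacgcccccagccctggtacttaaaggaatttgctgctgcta
Meox2 (chr12:37108290-37108539, plus strand): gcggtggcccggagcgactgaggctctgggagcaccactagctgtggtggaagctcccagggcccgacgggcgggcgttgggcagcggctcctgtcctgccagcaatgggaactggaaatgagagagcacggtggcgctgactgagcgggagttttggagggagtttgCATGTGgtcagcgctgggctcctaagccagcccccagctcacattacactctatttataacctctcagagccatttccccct
Twist1 (chr12:33957421-33957670, plus strand): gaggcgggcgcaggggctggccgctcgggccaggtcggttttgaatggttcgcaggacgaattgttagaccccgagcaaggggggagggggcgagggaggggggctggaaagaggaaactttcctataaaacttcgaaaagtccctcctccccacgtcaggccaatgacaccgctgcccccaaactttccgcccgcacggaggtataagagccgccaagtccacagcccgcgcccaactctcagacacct
Prrx1 (chr1:163313651-163313900, minus strand): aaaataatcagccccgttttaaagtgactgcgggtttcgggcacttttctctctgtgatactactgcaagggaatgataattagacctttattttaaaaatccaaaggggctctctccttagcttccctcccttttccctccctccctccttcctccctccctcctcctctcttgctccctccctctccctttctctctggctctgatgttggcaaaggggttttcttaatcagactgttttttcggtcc
The Snai1 window holds CACCTG, 126 bases before the start, and the Meox2 window holds CATGTG, 82 bases before it. CANNTG reads as the same pattern on both strands and occurs in 66.2% of the 32851 promoter windows of that length. The form CACCTG, or CAGGTG on the other strand, is one kind of CANNTG and occurs in 17.2% of them. These matches describe the letters and not binding.

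Library depth was 13886399 to 23652959 reads assigned to genes in MPNST, 15307987 to 20056513 in neurofibroma and 14303986 to 20335697 in nerve. The MPNST libraries differed most among themselves, with Spearman correlations over 16455 genes of 0.582 to 0.938 between pairs, against 0.957 to 0.984 in neurofibroma and 0.934 to 0.985 in nerve. In MPNST library 2 salivary gland markers took 34.2% of the counts. MPNST library 6 held sensory neuron, sympathoadrenal and pancreatic acinar markers at summed levels of 1169, 2791 and 2390 CPM (reads per 1e6 assigned reads, scaled between libraries), and MPNST library 3 held skeletal muscle markers at 36930 CPM. Adipocyte markers summed to 816.3 and 397.5 CPM in MPNST libraries 1 and 5, against 2.40 to 115 CPM in the other MPNST. Library 1 also held B and plasma cell markers at 474.8 CPM. The changes of the factors in MPNST are given with and without libraries 2 and 6. Libraries 1, 3 and 5, with the transcripts named here, stay in those fits. Neurofibroma library 1 held adipocyte and skeletal muscle markers at 520.5 and 1474 CPM, against at most 4.90 and 4.71 CPM in the other neurofibromas. Nerve library 6 had a sensory neuron sum of 2151 CPM, against 4013 to 5032 CPM in the other nerves. Counts of calls between neurofibroma and nerve are therefore also given without these 2 libraries. Nerve library 3 held skeletal muscle markers at 365.8 CPM, against at most 26.6 CPM in the other nerves. It stays in those fits. Of the targeted genes, Nf1 had 41.3, 52.8 and 111 CPM (lowest, median, highest) in MPNST, 64.5, 80.9 and 86.5 in neurofibroma and 79.0, 126 and 158 in nerve. Nf1 was lower in MPNST than in nerve (log2 change -0.82 ± 0.27, adjusted p = 0.0260) and lower in neurofibroma than in nerve (-0.60 ± 0.16, adjusted p = 0.0304). Against nerve, the MPNST call ended when MPNST 1 or 4 or nerve 3 or 4 was left out (adjusted p up to 0.0567), and the neurofibroma call without neurofibroma library 1, 2, 4 or 5 or nerve library 3, 4 or 5 (adjusted p up to 0.0665). Cdkn2a, whose locus encodes Arf and Ink4a, averaged 106, 5.14 and 1.04 CPM in MPNST, neurofibroma and nerve, with 605 CPM in MPNST library 4. A gene-level row does not separate Arf from Ink4a, or deleted from intact transcripts. Postn, the gene whose promoter drives Cre, averaged 1886, 155 and 20.4 CPM in the same order.

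Levels below are CPM scaled by the trimmed mean of M values (TMM), and changes are log2 ratios ± SE from edgeR's quasi-likelihood test, with p-values adjusted by Benjamini-Hochberg over all genes tested. The SE was derived from that test, as the absolute change divided by the square root of its F statistic. A change was called at an adjusted p below 0.05. Each group held 6 libraries, so a group's values are given as lowest, median and highest. The TMM factor was 0.406 in MPNST library 2 and 0.960 to 1.14 in the other MPNST. This factor raises the levels of library 2, so its place against other libraries depends on the scaling.

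In MPNST against neurofibroma, 6 of the 10 factors rose and the other 4 did not pass the test. The 6 were Snai1, Snai2, Twist1, Twist2, Prrx1 and Prrx2. Of these, Twist2 was too low in neurofibroma and nerve to be tested between them. It passed the filter here through MPNST, where it was higher, so its place in the count rests on that group. Zeb1, Zeb2, Meox1 and Meox2 were not called. In the same comparison 25.3% of the 16537 genes tested were called higher and 16.8% lower, or 42.0% called in all. No factor separated all 6 MPNST from all 6 neurofibromas, as 23.4% of genes did in either direction. The median change of the 10 factors was 2.08, against 0.22 over all genes. No factor fell by edgeR, at an unadjusted p under 0.05 (0 of 10) or by DESeq2 or limma-voom, which each called 7 higher and 0 lower. Without MPNST libraries 2 and 6, 8 of the 10 were called, Zeb1 and Meox2 in addition, where 30.7% of genes were called higher and 28.5% lower.

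In MPNST against nerve, 8 of the 10 rose, all but Zeb1 and Zeb2. Twist2, counted among them, again passed the filter through MPNST. Here 27.6% of the 16384 genes tested were called higher and 18.4% lower, 46.0% in all. The median of the 10 was 3.10, against 0.22 over all genes. No factor fell by edgeR, at an unadjusted p under 0.05 (0 of 10) or by DESeq2 or limma-voom (0 each). DESeq2 called 8 higher and limma-voom 10, Zeb1 and Zeb2 included. Without MPNST libraries 2 and 6 all 10 were called higher, against 32.9% of all genes called higher and 27.8% lower. This comparison and the preceding one share the MPNST libraries.

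In neurofibroma against nerve, 4 of 9 tested factors rose, namely Snai1, Zeb2, Meox1 and Meox2. Twist2 was too low to be tested there. Among the 16464 genes tested, 7.94% were called higher and 6.00% lower. The median of the 9 was 0.70, against -0.02 over all genes. No factor fell by edgeR, at an unadjusted p under 0.05 (0 of 9) or by DESeq2 or limma-voom, which called 6 and 5 higher and 0 lower. This comparison shares its neurofibromas and its nerves with the others. Without nerve library 6 and neurofibroma library 1, 5 factors were called higher, Zeb1 in addition, where 10.7% of genes were called higher and 10.1% lower. The calls of Snai1 and Zeb2 depended on single libraries, as given with each gene.

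**Figure D1:**
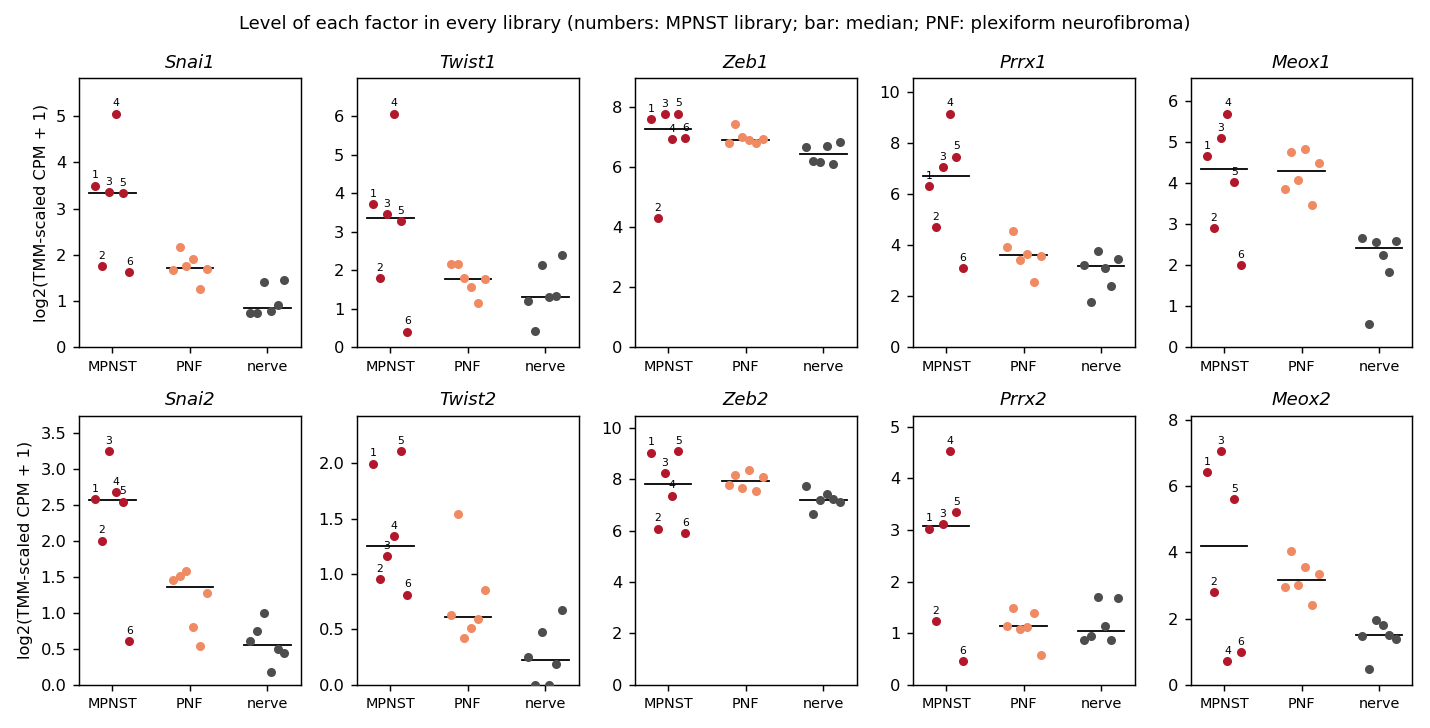
Level of each factor in every library, as log2(TMM-scaled CPM + 1) on the vertical axis, in MPNST, plexiform neurofibroma (PNF) and normal nerve. Numbers mark the MPNST libraries and bars the medians. MPNST libraries 1, 3, 4 and 5 lie above every neurofibroma for Snai1, Twist1, Prrx1 and Prrx2, while library 6 lies above the neurofibroma range for none of these and library 2 only for Prrx1.

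**Figure D2:**
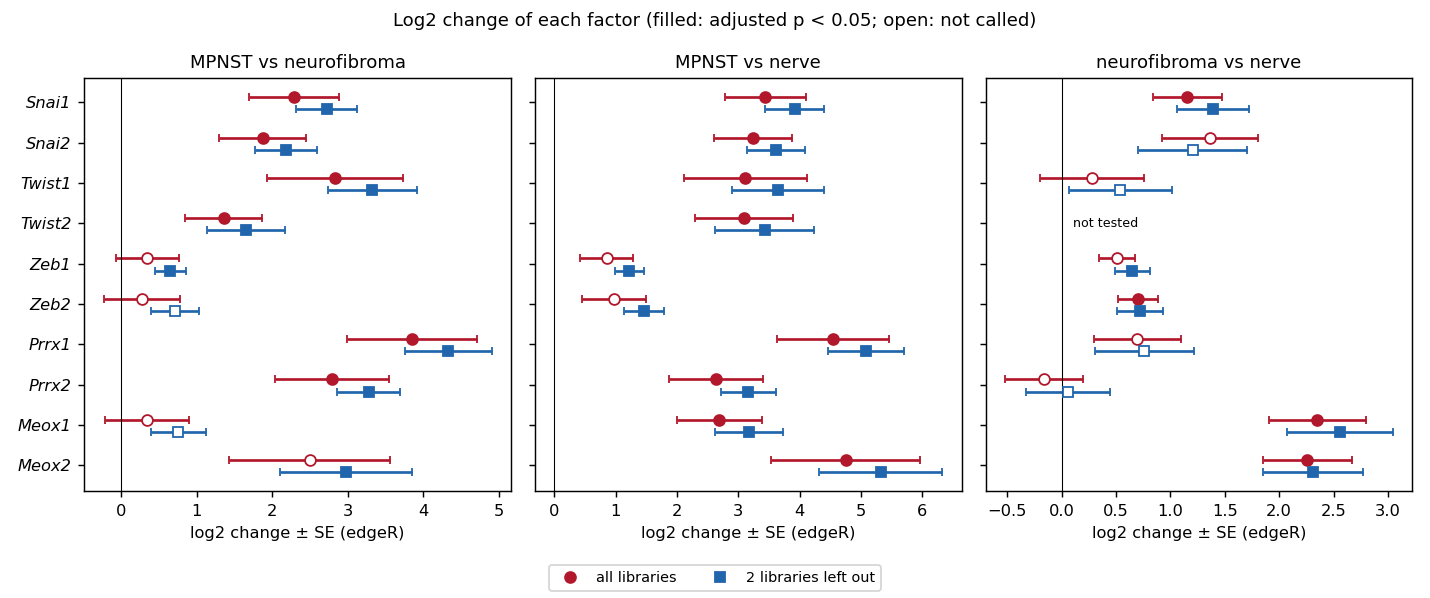
Log2 change ± SE of each factor in the 3 comparisons. Red circles use all 12 libraries of a comparison, and blue squares leave out MPNST libraries 2 and 6, or nerve library 6 and neurofibroma library 1. Filled marks are called at an adjusted p below 0.05. Prrx1 shows the highest change against neurofibroma (3.85) and Meox2 the highest against nerve (4.75).

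Snai1 had 2.09, 9.15 and 32.3 CPM in MPNST, 1.41, 2.30 and 3.48 CPM in neurofibroma and 0.677, 0.810 and 1.73 CPM in nerve. All 6 MPNST lay above all 6 nerves, a separation that 8.75% of genes showed upwards and 14.8% downwards. It rests on the TMM scaling of MPNST library 2. Without that scaling this library had 0.972 CPM, below nerve libraries 3 and 6 (1.78 and 1.90 CPM). Against neurofibroma, libraries 1, 3, 4 and 5 lay above the whole range and libraries 2 and 6 within it. Snai1 rose by 2.29 ± 0.60 against neurofibroma (adjusted p = 0.00965) and by 3.44 ± 0.66 against nerve (adjusted p = 0.00166). Library 4 stood highest, and without it the change against neurofibroma was 1.59 and still called. Without libraries 2 and 6 the changes were 2.72 ± 0.41 and 3.92 ± 0.48, both called. Neurofibroma also exceeded nerve in Snai1, which rose by 1.16 ± 0.32 (adjusted p = 0.0316). Of the 6 neurofibromas, 5 lay above all nerves. This call was lost when any of neurofibroma libraries 2, 4 or 6, or nerve libraries 1, 2, 4 or 5, was left out, with adjusted p of 0.0557 to 0.0746.

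Snai2, a factor of migrating neural crest, was lower in every group than Snai1 per length. It had 0.521, 4.94 and 8.56 CPM in MPNST, 0.451, 1.58 and 1.99 CPM in neurofibroma and 0.133, 0.471 and 1.01 CPM in nerve. Libraries 1 to 5 of the MPNST lay above every neurofibroma and every nerve, and library 6 lay inside both ranges. In CPM without TMM scaling, MPNST library 2 had 1.23, below neurofibroma library 3 (2.10). Snai2 rose by 1.88 ± 0.58 against neurofibroma (adjusted p = 0.0207) and by 3.24 ± 0.63 against nerve (adjusted p = 0.00171). With MPNST libraries 2 and 6 left out the changes were 2.19 ± 0.41 and 3.62 ± 0.47, both called. With no filter on low counts the change against neurofibroma had an adjusted p of 0.0503. Neurofibroma exceeded nerve by 1.37 ± 0.44, which missed the threshold (adjusted p = 0.0560), and the call appeared when neurofibroma library 5 (adjusted p = 0.0301) or nerve library 3 (adjusted p = 0.0408) was left out.

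Twist1 spread more widely in MPNST than in the other groups. It had 0.332, 9.39 and 66.4 CPM in MPNST, 1.24, 2.44 and 3.48 CPM in neurofibroma and 0.344, 1.48 and 4.23 CPM in nerve. Library 6 of the MPNST had the lowest Twist1 level of all 18 libraries and library 4 the highest, so the groups overlapped at both ends. Twist1 rose by 2.83 ± 0.90 against neurofibroma (adjusted p = 0.0248) and by 3.11 ± 1.002 against nerve (adjusted p = 0.0239). Library 4 decided both calls: without it the changes were 1.56 (adjusted p = 0.0856) and 1.85 (adjusted p = 0.0808). Leaving out neurofibroma library 3, 4, 5 or 6 also ended the first call (adjusted p up to 0.0557), and nerve library 1, 4 or 5 the second. Without MPNST libraries 2 and 6 the changes were 3.33 ± 0.59 and 3.65 ± 0.75, both called. Neurofibroma and nerve differed by 0.28 ± 0.48 (adjusted p = 0.723).

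Twist2 was the lowest of the 10 factors in every group. It had 0.758, 1.39 and 3.32 CPM in MPNST, 0.340, 0.527 and 1.91 CPM in neurofibroma and 0, 0.165 and 0.596 CPM in nerve. Nerve libraries 2 and 4 held 0 counts, which allows up to 0.147 and 0.199 CPM, taking 3 counts as the limit and covering counting error only. All MPNST lay above all nerves. This too rests on TMM scaling, without which MPNST library 2 had 0.38 CPM, below nerve library 6 (0.655 CPM). Against neurofibroma only MPNST libraries 1 and 5 lay above the range, in which neurofibroma library 2 stood apart. The rise was 3.09 ± 0.80 against nerve (adjusted p = 0.00828) and 1.36 ± 0.51 against neurofibroma (adjusted p = 0.0499). Against neurofibroma the value sat at the threshold: leaving out any of 9 single libraries ended the call (adjusted p 0.0554 to 0.104). It was 1.65 ± 0.51 without MPNST libraries 2 and 6 and called (adjusted p = 0.0177), and the change against nerve was 3.43 ± 0.81.

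Prrx1, which marks connective tissue progenitors and fibroblasts, showed the strongest rise against neurofibroma. Its level in MPNST was 7.68, 106 and 573 CPM, against 4.97, 11.3 and 22.9 CPM in neurofibroma and 2.41, 8.10 and 12.7 CPM in nerve. Libraries 1 to 5 of the MPNST exceeded every neurofibroma and every nerve, while library 6 fell inside both ranges. In CPM without TMM scaling, MPNST library 2 had 10.4, below neurofibroma library 2 (24.3) and nerve library 3 (13.5). Prrx1 rose by 3.85 ± 0.86 against neurofibroma (adjusted p = 0.00437) and by 4.54 ± 0.91 against nerve (adjusted p = 0.00205). Without library 4, which was more than 3 times the next library, the changes were 2.92 and 3.61 and both calls stood. Without libraries 2 and 6 they were 4.33 ± 0.57 and 5.07 ± 0.62, both called. Neurofibroma and nerve overlapped, with a difference of 0.70 ± 0.40 (adjusted p = 0.253).

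Prrx2 had 0.379, 7.42 and 22.1 CPM in MPNST, 0.496, 1.19 and 1.80 CPM in neurofibroma and 0.821, 1.06 and 2.24 CPM in nerve. As for Twist1, MPNST libraries 1, 3, 4 and 5 lay above both other groups and library 6 below both. Prrx2 rose by 2.79 ± 0.76 against neurofibroma (adjusted p = 0.0115) and by 2.63 ± 0.76 against nerve (adjusted p = 0.0148), and both calls stood when any 1 library was left out. Library 4 was highest, and without it the changes were 2.19 and 2.03. The changes without MPNST libraries 2 and 6 were 3.28 ± 0.42 and 3.16 ± 0.45, both called. Neurofibroma and nerve differed by -0.16 ± 0.36 (adjusted p = 0.795), a difference whose sign turned when nerve library 3 or 6 was left out.

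Meox1 rose against nerve both in MPNST and in neurofibroma. It had 3.03, 19.8 and 50.9 CPM in MPNST, 9.99, 18.7 and 27.7 CPM in neurofibroma and 0.491, 4.36 and 5.32 CPM in nerve. Every neurofibroma lay above every nerve, as did 4.69% of genes, and the MPNST covered the neurofibroma range and went past it on both sides. Meox1 rose by 2.35 ± 0.44 in neurofibroma against nerve (adjusted p = 0.00663) and by 2.69 ± 0.70 in MPNST against nerve (adjusted p = 0.00825). Between MPNST and neurofibroma the difference was 0.34 ± 0.56 (adjusted p = 0.648) and was -0.063 without MPNST library 4. Leaving out MPNST libraries 2 and 6 gave 0.76 ± 0.36 (adjusted p = 0.0942, not called), while the change against nerve was 3.17 ± 0.55 and called.

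Meox2, which in mouse limbs and vessels takes part in muscle patterning and in endothelial growth arrest, also separated neurofibroma from nerve. Its levels were 0.638, 26.7 and 132 CPM in MPNST, 4.35, 8.06 and 15.5 CPM in neurofibroma and 0.393, 1.82 and 2.92 CPM in nerve. All neurofibromas again lay above all nerves. In MPNST, libraries 1, 3 and 5 had 84.0, 132 and 47.6 CPM, above every neurofibroma, and libraries 4 and 6 had 0.638 and 0.995 CPM, below every neurofibroma. Meox2 rose by 2.26 ± 0.41 in neurofibroma against nerve (adjusted p = 0.00580) and by 4.75 ± 1.21 in MPNST against nerve (adjusted p = 0.00766). The difference of 2.50 ± 1.07 between MPNST and neurofibroma was not called (adjusted p = 0.0774). It was called without MPNST library 4 (2.76, adjusted p = 0.0312) or library 6 (2.76, adjusted p = 0.0257), and by DESeq2 and limma-voom. Without MPNST library 3, which was highest in Meox2 and held the skeletal muscle markers, the change was 1.725 against neurofibroma (adjusted p = 0.191) and 3.98 against nerve (adjusted p = 0.0160). Without both of libraries 2 and 6 it was 2.98 ± 0.88 (adjusted p = 0.0138), and the change against nerve was 5.32 ± 1.01.

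Zeb1 and Zeb2 were high in all 3 groups, and edgeR called neither in MPNST against neurofibroma or nerve. Against nerve, limma-voom called both higher (Zeb1 1.08, adjusted p = 0.0125, and Zeb2 1.31, adjusted p = 0.00589), while DESeq2 called neither. Zeb1 had 18.7, 158 and 220 CPM in MPNST, 111, 119.5 and 171 CPM in neurofibroma and 67.3, 86.2 and 113 CPM in nerve. Zeb2 had 59.1, 234 and 553 CPM in MPNST, 186, 244 and 330 CPM in neurofibroma and 99.3, 146 and 213 CPM in nerve. For Zeb1 the MPNST library 2 lay far below all others, and for Zeb2 libraries 2, 4 and 6 lay below every neurofibroma while libraries 1 and 5 lay above. Against neurofibroma the changes were 0.35 ± 0.42 for Zeb1 (adjusted p = 0.524) and 0.27 ± 0.51 for Zeb2 (adjusted p = 0.687), and against nerve 0.86 ± 0.43 (adjusted p = 0.121) and 0.97 ± 0.52 (adjusted p = 0.141).

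By edgeR, single libraries decided the Zeb calls against nerve, while leaving out any 1 library changed neither call between MPNST and neurofibroma. Without MPNST library 2, Zeb1 rose by 1.06 against nerve (adjusted p = 0.00444), and without MPNST library 6, Zeb2 rose by 1.18 against nerve (adjusted p = 0.0364). With MPNST libraries 2 and 6 both left out, Zeb1 was also higher than in neurofibroma (0.65 ± 0.20, adjusted p = 0.0182) and Zeb2 was not called there (0.71 ± 0.32, adjusted p = 0.0789). Between neurofibroma and nerve, Zeb2 rose by 0.70 ± 0.18 (adjusted p = 0.0261), a call lost without neurofibroma library 2, 4 or 6 or nerve library 3 or 5. Zeb1 differed there by 0.51 ± 0.16 (adjusted p = 0.0552) and was called without nerve library 6 (0.61, adjusted p = 0.0161). The antisense gene Zeb2os overlaps Zeb2 on the opposite strand and averaged 8.62, 4.54 and 2.86 CPM in MPNST, neurofibroma and nerve. The library kit keeps the strand, but whether the counting used it is not given in the sources used here.

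The MPNST libraries fell into a recurring order across the factors. Library 1 exceeded every neurofibroma for 9 of the 10 factors, library 5 for 9, library 3 for 8, library 4 for 6, library 2 for 2 and library 6 for 0. Libraries 2 and 6 each ranked 5 or 6 among the 6 MPNST for 9 factors. Library 6 lay below every neurofibroma for 5 factors, library 2 for 3 and library 4 for 2. Library 4 was highest for Snai1, Twist1, Prrx1, Prrx2 and Meox1 and lowest for Meox2, and it was also the library with the high Cdkn2a level. The summed fibroblast markers (Pdgfra, Pdgfrb, Dcn, Lum, Dpt and Pi16) had a similar low end, with 3143, 437, 2614, 1654, 1571 and 108 CPM in MPNST libraries 1 to 6. Pericyte and smooth muscle markers shared this low end, with 319, 164, 556, 300, 257.5 and 90.1 CPM in libraries 1 to 6. Library 6 was also lowest in the endothelial and macrophage sums (62.1 and 79.4 CPM). The part of these markers in the levels of the factors was not tested. In bulk RNA, fewer cells of a type and less RNA per cell cannot be told apart.

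**Figure D3:**
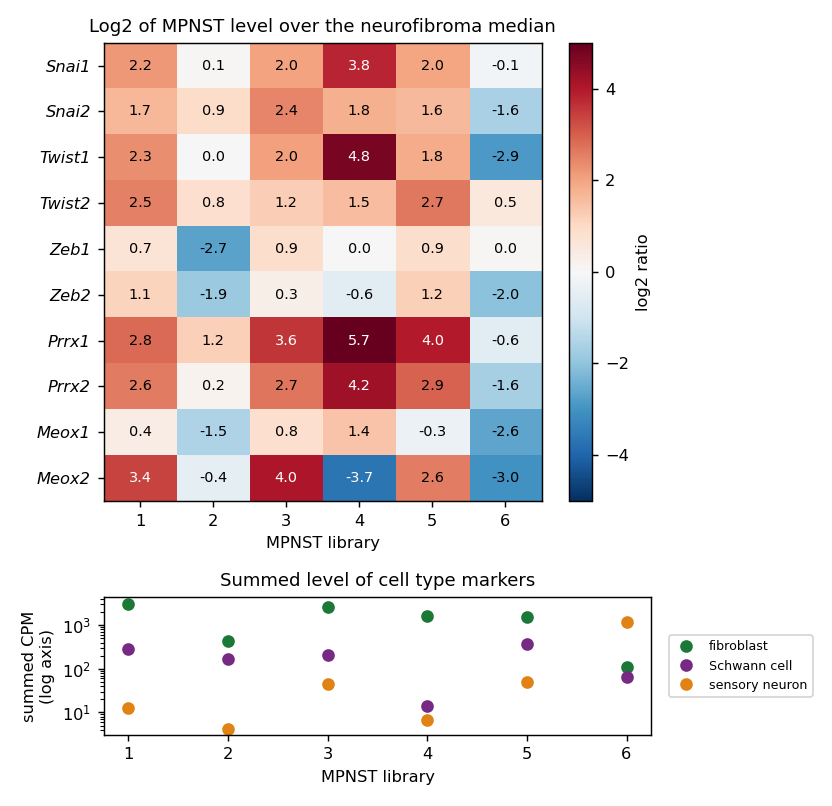
Upper panel: log2 of each factor's level in each MPNST library over the neurofibroma median (columns are libraries, rows are factors, red is higher and blue lower). Lower panel: summed TMM-scaled CPM of fibroblast, Schwann cell and sensory neuron markers in the same libraries, on a log axis. Library 6 has the lowest fibroblast sum (108 CPM) and the highest sensory neuron sum (1169 CPM), and library 4 the lowest Schwann cell sum (14.2 CPM).

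Marker sums also moved between the groups. All 6 fibroblast markers were detected in each group, with sums of 108 to 3143 CPM in MPNST, 979 to 1922 CPM in neurofibroma and 147 to 893 CPM in nerve. Every neurofibroma was above every nerve in this sum, as for Meox1 and Meox2. Of the nerves, library 2 was lowest in it and in Twist1, Zeb2, Prrx1, Meox1 and Meox2, and shared 0 counts of Twist2 with library 4. It was also lowest in the macrophage sum (24.3 CPM) and the pericyte and smooth muscle sum (89.2 CPM). Of the fibroblast markers taken singly, only Dcn (means 1079 and 461 CPM in neurofibroma and nerve) and Lum (280 and 68.2 CPM) separated neurofibroma from nerve. Pdgfrb was called higher with overlap (adjusted p = 0.037), and Pdgfra, Dpt and Pi16 were not called. Between MPNST and neurofibroma the fibroblast markers moved apart. Dpt (4.18, adjusted p = 0.0022) and Pi16 (4.72, adjusted p = 0.00135) were called higher, with every MPNST above every neurofibroma. Pdgfra, Pdgfrb, Dcn and Lum were not called there. The 4 Schwann cell markers used (Sox10, S100b, Ngfr and Foxd3) summed to 14.2 to 379 CPM in MPNST, 1804 to 2237 CPM in neurofibroma and 900.2 to 1500 CPM in nerve. S100b (means 19.1, 1455 and 827 CPM in the same order) and Ngfr were called lower in MPNST against both other groups. Sox10 was not called in MPNST against neurofibroma (-0.51, adjusted p = 0.561) or nerve (0.23, adjusted p = 0.798). Foxd3 was not called either (-0.23, adjusted p = 0.751, and 1.01, adjusted p = 0.160). Sensory neuron markers summed to 4.27 to 1169 CPM in MPNST, 3238 to 4804 CPM in neurofibroma and 2151 to 5032 CPM in nerve. No marker of these 3 lists was at 0 in every library of a group. Macrophage markers summed to 79.4 to 1677 CPM in MPNST, 85.9 to 187 CPM in neurofibroma and 24.3 to 122 CPM in nerve. The part of these cell types in the results was not tested.

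Ratios between paralogs do not depend on how a library is scaled, and they are given as log2 of the counts with 0.5 added to each. Prrx1 outnumbered Prrx2 in every library, by 4.17 ± 0.40 in MPNST, 3.26 ± 0.94 in neurofibroma and 2.39 ± 0.65 in nerve (SD, n = 6 each). The MPNST ratios, 3.48 to 4.70, all lay above the highest nerve, 3.33, and MPNST libraries 2 and 6, in which both genes were low, had ratios of 4.18 and 4.26. The Meox1/Meox2 ratio was narrow in neurofibroma, 0.76 to 1.36, and wide in MPNST, where it was negative in libraries 1, 3 and 5 (-1.79, -1.996 and -1.64) and 6.28 in library 4. Twist1/Twist2 was 2.003 ± 2.16 in MPNST, with -1.14 in library 6 and 5.41 in library 4, 1.86 ± 0.77 in neurofibroma and 3.50 ± 1.08 in nerve. Nerve libraries 2 and 4 held 0 counts of Twist2, so their ratios rest on the added count. With 1 added to each count the nerve value was 3.10 ± 0.72. Zeb1 had fewer reads than Zeb2 in every library but MPNST library 6, where the ratio was 1.07. Snai1/Snai2 averaged 1.04 ± 1.09, 0.92 ± 0.66 and 1.08 ± 0.93 in MPNST, neurofibroma and nerve. These ratios mix gene lengths and carry no test.

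**Figure D4:**
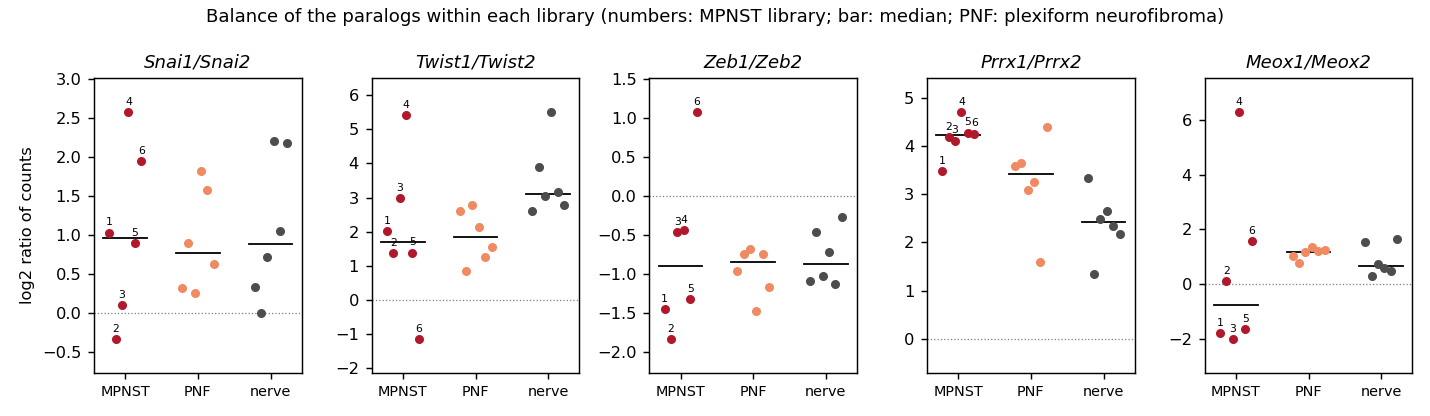
Log2 ratio of the counts of each paralog pair (0.5 added to each count) in every library of MPNST, plexiform neurofibroma (PNF) and nerve. Numbers mark MPNST libraries, bars are medians and the dotted line marks equal counts. The Prrx1/Prrx2 ratio of all 6 MPNST lies above the highest nerve value, 3.33, and the Meox1/Meox2 ratio of MPNST runs from -1.996 to 6.28.

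Per kilobase of exon, the order of the factors also differed between the groups. In MPNST the mean levels per kilobase were 25.7 for Zeb1, 24.4 for Zeb2, 19.2 for Meox2, 16.9 for Prrx1, 10.2 for Twist1, 9.95 for Meox1, 6.72 for Snai1, 4.63 for Prrx2, 2.26 for Snai2 and 0.567 for Twist2 (CPM per kilobase). In neurofibroma Zeb1 and Zeb2 both stood at 21.8, followed by Meox1 at 8.59, Meox2 at 3.77, Twist1 at 1.54, Snai1 at 1.48, Prrx1 at 1.26, Prrx2 at 0.718, Snai2 at 0.677 and Twist2 at 0.238. In nerve Zeb1 stood at 15.1, Zeb2 at 13.3, Meox1 at 1.66, Twist1 at 1.26, Prrx2 at 0.796, Meox2 at 0.782, Prrx1 at 0.773, Snai1 at 0.658, Snai2 at 0.258 and Twist2 at 0.0692. Library 4 carried several of the MPNST means, with Twist1 at 40.8 there, and by medians Meox1 (8.86) stood above Twist1 (5.77). By means Prrx1 ranked 4 in MPNST and 7 in neurofibroma and in nerve. Zeb1 and Zeb2 overlapped in every group, and both lay above all other factors in every neurofibroma and nerve library. No neighbours in the MPNST order were separated beyond their ranges. In neurofibroma and nerve the only neighbours that did not overlap were Zeb2 and Meox1.

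All 3 genes for E proteins, the dimer partners of Twist proteins, rose in MPNST. By edgeR and DESeq2 they were the only genes called against neurofibroma among 7 genes for E proteins and their Id inhibitors, and limma-voom also called Id2 higher and Id4 lower. In these comparisons 25.3% of all genes were called higher against neurofibroma and 27.6% against nerve. Tcf3 averaged 88.4, 25.1 and 21.4 CPM in MPNST, neurofibroma and nerve and rose by 1.91 ± 0.32 against neurofibroma (adjusted p = 0.000784). Tcf4 averaged 688, 160 and 99.0 CPM (2.19 ± 0.39, adjusted p = 0.0012), and Tcf12 averaged 146, 53.6 and 40.0 CPM with all MPNST above all neurofibromas (1.56 ± 0.38, adjusted p = 0.0063). The same 3 rose against nerve and were called without MPNST libraries 2 and 6. The 4 Id genes, whose proteins block such dimers, showed changes against neurofibroma between -0.76 for Id4 and 0.89 for Id2. For neurofibroma against nerve edgeR called 0 of 7, with 2 higher at an unadjusted p under 0.05, and DESeq2 and limma-voom called 1 and 2 higher. Without nerve library 6 and neurofibroma library 1, Tcf4 (1.12 ± 0.17, adjusted p = 0.00322) and Tcf12 (0.51 ± 0.13, adjusted p = 0.0225) were called there.

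Corepressors that Snail and Zeb proteins recruit, a list of 8 genes, showed 5 higher and 3 not called in MPNST both against neurofibroma, where 25.3% of all genes were called higher, and against nerve, where 27.6% were. Ctbp2, Hdac1, Kdm1a and Sin3a were called both times, while Rcor1 was called against neurofibroma and not nerve and Ajuba against nerve and not neurofibroma, differences that were not tested. With MPNST libraries 2 and 6 left out the counts were 6 and 5, and 4 of the 5 genes called with all libraries remained each time. Ctbp2, a corepressor bound by Zeb proteins, averaged 45.4, 20.1 and 16.97 CPM in MPNST, neurofibroma and nerve, with every MPNST above every other library (1.29 ± 0.20 against neurofibroma, adjusted p = 0.000578). Hdac1, a histone deacetylase, averaged 68.2, 36.7 and 28.8 CPM (1.01 ± 0.17, adjusted p = 0.00096) and also rose in neurofibroma against nerve (0.34 ± 0.09, adjusted p = 0.0283), a call lost without neurofibroma library 2, 4 or 6 or nerve library 2, 3, 4 or 5 (adjusted p up to 0.0815). Sin3a, a deacetylase scaffold, averaged 50.1, 30.7 and 32.6 CPM (0.82 ± 0.22, adjusted p = 0.0117). These 3 were also called without MPNST libraries 2 and 6.

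Transforming growth factor beta (TGF-beta) induces Snai1, Snai2 and the Zeb genes in many epithelial cells. Of 11 ligand, receptor and SMAD genes, 7 rose in MPNST against neurofibroma and 8 against nerve, where 25.3% and 27.6% of all genes were called higher. The list medians were 1.22 and 1.70, against 0.22 over all genes each time. The counts higher were 9 each time without MPNST libraries 2 and 6, where Smad2, a receptor-activated SMAD, was called lower against neurofibroma. Tgfb1, a ligand, averaged 46.1, 9.15 and 4.90 CPM in MPNST, neurofibroma and nerve and separated MPNST from both other groups (2.44 ± 0.43 against neurofibroma, adjusted p = 0.00117). Skil, a SMAD-binding corepressor, averaged 85.5, 21.8 and 20.8 CPM (2.09 ± 0.30, adjusted p = 0.000358), and Smad4, the shared SMAD, averaged 70.8, 41.9 and 43.3 CPM (0.90 ± 0.19, adjusted p = 0.00325). Between neurofibroma and nerve edgeR called 0 of 11, with 4 higher at an unadjusted p under 0.05, and DESeq2 and limma-voom called 3 and 2 higher. Without nerve library 6 and neurofibroma library 1, Tgfb1 was called there (1.18 ± 0.26, adjusted p = 0.0109).

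Cdh1, the textbook target of the Snail and Zeb repressors, had 0.900, 13.2 and 214 CPM in MPNST, 179, 205 and 215 CPM in neurofibroma and 114, 180 and 216 CPM in nerve. In MPNST it was 18.1, 2.56, 8.41, 24.4 and 0.900 CPM in libraries 1, 3, 4, 5 and 6, below every neurofibroma and nerve, and 214 CPM in library 2, which held the salivary gland transcripts. With all libraries Cdh1 changed by -1.91 ± 1.05 against neurofibroma and was not called by edgeR (adjusted p = 0.158), while limma-voom called it lower. Leaving out MPNST library 2 alone gave -4.13 ± 0.73 (adjusted p = 0.00132). Without MPNST libraries 2 and 6 it fell by 3.85 ± 0.54 against neurofibroma (adjusted p = 0.000164) and by 3.62 ± 0.54 against nerve (adjusted p = 0.000234). Neurofibroma and nerve differed by 0.20 ± 0.12 in Cdh1 (adjusted p = 0.275).

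Of 18 epithelial junction, keratin and splicing genes, Cdh1 included, 9 were high enough to be tested in MPNST against neurofibroma. EdgeR called 7 of the 9 higher, where 25.3% of all genes were called higher. Of these, Epcam, Tjp3, Dsp and Krt8 were too low in neurofibroma and nerve to be tested between them, so they passed the filter through MPNST, where they were high, and the count does not describe the whole list. The strongest by p were Tjp3, a tight junction scaffold (4.70 ± 1.34, adjusted p = 0.0149), Epcam, an epithelial adhesion protein (6.197 ± 1.81, adjusted p = 0.0164), and Dsp, the desmosomal protein desmoplakin (5.95 ± 1.88, adjusted p = 0.0237). Epcam had 340 CPM in MPNST library 2 and 0.219 to 19.1 CPM in the other MPNST. Without library 2 the changes were 2.44 for Tjp3 (adjusted p = 0.0418), 2.81 for Epcam (adjusted p = 0.0660) and 2.36 for Dsp (adjusted p = 0.137), so that only Tjp3 of these 3 stayed called. Without libraries 2 and 6, 3 of the 9 were called higher (Cldn1, Krt19 and Tjp3) and 2 lower (Cdh1 and Ocln), while Dsp (1.399 ± 1.16, adjusted p = 0.319) and Epcam (2.66 ± 1.19, adjusted p = 0.0759) were not called. Of all genes 30.7% were called higher there and 28.5% lower, so these counts lie near the shares of all genes. With all libraries DESeq2 called 3 of the 9 higher, and limma-voom 4 higher and 1 lower. Against nerve 4 of 6 tested were called higher, 2 by DESeq2 and 2 by limma-voom, which called 1 lower. EdgeR called 27.6% of all genes higher there, and Dsp and Krt8 again passed the filter through MPNST. Without libraries 2 and 6, 3 were higher and 2 lower, beside 32.9% and 27.8% of all genes. In neurofibroma against nerve edgeR called 0 of 5, with 1 higher at an unadjusted p under 0.05, and DESeq2 and limma-voom called 1 and 0.

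Mesenchymal products were measured as a list of 18 genes. In MPNST 9 rose against neurofibroma and 12 against nerve, where 25.3% and 27.6% of all genes were called higher. Leaving out MPNST libraries 2 and 6 gave counts of 13 and 14, Tnc, Col3a1 and Fn1 among them, with 30.7% and 32.9% of all genes. limma-voom also called Cdh2 and Thy1 lower in both comparisons. Tnc, the matrix glycoprotein tenascin C, averaged 329, 4.57 and 2.73 CPM in MPNST, neurofibroma and nerve (6.31 ± 0.66 against neurofibroma, adjusted p = 3.88e-05). Col3a1, a fibrillar collagen, averaged 2120, 237 and 56.8 CPM (3.27 ± 0.60, adjusted p = 0.0014), and Fn1, fibronectin, averaged 938, 126 and 57.7 CPM (3.01 ± 0.59, adjusted p = 0.00213). Neurofibroma against nerve gave 10 that rose and 1 that fell, beside 7.94% of all genes called higher and 6.00% lower. S100a4, a calcium-binding protein of fibroblasts, rose by 1.75 ± 0.23 (adjusted p = 0.00185) and Fap, a fibroblast surface protease, by 1.96 ± 0.28 (adjusted p = 0.00222), with all neurofibromas above all nerves for both.

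The classical EMT readouts Vim and Cdh2 did not pass the edgeR test between MPNST and neurofibroma. Vim, the intermediate filament vimentin, averaged 1314, 1150 and 476 CPM in MPNST, neurofibroma and nerve. Its change was 0.30 ± 0.47 against neurofibroma (adjusted p = 0.632), and 0.70 ± 0.25 without MPNST libraries 2 and 6 (adjusted p = 0.0298). It rose by 1.56 ± 0.50 in MPNST against nerve (adjusted p = 0.024), a call that ended when MPNST 4 or nerve 2, 3 or 4 was left out (adjusted p up to 0.0558), and by 1.26 ± 0.22 in neurofibroma against nerve (adjusted p = 0.00479). Cdh2, N-cadherin, averaged 67.7, 82.9 and 102 CPM. It changed by -0.23 ± 0.61 in MPNST against neurofibroma (adjusted p = 0.783) and was slightly lower in neurofibroma than in nerve (-0.30 ± 0.09, adjusted p = 0.0421). That call was lost without any 1 of 8 libraries (neurofibroma 1, 2, 3, 5 or 6, or nerve 2, 4 or 5, adjusted p 0.0556 to 0.0917) and without nerve library 6 and neurofibroma library 1 together (-0.30 ± 0.10, adjusted p = 0.0609).

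Other mesenchymal transcription factors, a list of 18 genes, gave 4 risers among 13 tested in MPNST against neurofibroma, 6 among 13 against nerve and 3 among 14 in neurofibroma against nerve. All genes called higher made up 25.3%, 27.6% and 7.94% in the 3 comparisons, so 4 of 13 (30.8%) lies near the share of all genes. Msx1, a homeodomain factor of face and limb mesenchyme, averaged 10.8, 1.37 and 0.752 CPM in MPNST, neurofibroma and nerve (3.09 ± 0.79 against neurofibroma, adjusted p = 0.0087). Osr1, a zinc-finger factor of intermediate mesoderm and connective tissue, averaged 23.3, 1.56 and 2.29 CPM (4.01 ± 1.03, adjusted p = 0.00887). It had 98.3 CPM in MPNST library 5 and 0.284 to 14.5 CPM in the other MPNST, and without library 5 the change was 2.58 (adjusted p = 0.0191). Nerve library 6 had 10.2 CPM of Osr1 and the other nerves at most 1.46 CPM. Foxf1, a forkhead factor of gut and lung mesenchyme, averaged 6.10, 0.996 and 1.10 CPM (2.71 ± 0.95, adjusted p = 0.0369). Only MPNST libraries 4 and 5, with 25.5 and 7.80 CPM, lay above the neurofibromas. Without library 4 the change was 1.28 (adjusted p = 0.158), and no call was made without MPNST library 5 or any 1 neurofibroma (adjusted p 0.0571 to 0.0759). Foxs1, a forkhead factor of neural crest derivatives and pericytes, averaged 7.59, 9.98 and 1.60 CPM and rose in neurofibroma against nerve (2.62 ± 0.33, adjusted p = 0.00166) with no overlap between those groups. Runx2, an osteoblast factor, rose in MPNST against neurofibroma (1.38 ± 0.49, adjusted p = 0.0397; lost without MPNST library 1, 2, 4 or 5 or any 1 neurofibroma, adjusted p 0.0545 to 0.0808) and in neurofibroma against nerve (0.74 ± 0.17, adjusted p = 0.0152). Without MPNST libraries 2 and 6, 9 of the 13 were called higher against neurofibroma, Msx1, Osr1, Foxf1 and Runx2 among them, and 10 of 14 against nerve, where Foxf2, a forkhead factor related to Foxf1, was called lower.

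The genes whose profile over the 18 samples was nearest to each factor were found by the root mean square difference of centred log2(CPM + 1) values among 16455 genes, as a description. Nearest to Snai1 were Tsku (0.32), Spry1 (0.33) and Slc25a24 (0.34). Twist1 was nearest to Ddr2 (0.39), Thbd (0.43) and Igfbp4 (0.44), and Prrx1 to Itga5 (0.47), Ppic (0.55) and Tnfaip2 (0.62). For Meox1 the nearest were Has2 (0.48), Foxs1 (0.55) and Tgfbi (0.55), and for Meox2 Cldn1 (0.70), Klk8 (0.72) and Trabd2b (0.72). Prrx2 was nearest to Gabre (0.28), Ednra (0.30) and Lhx6 (0.33), and Zeb2 to Plscr4 (0.29), Stk10 (0.35) and Pde7b (0.36). Zeb1 was nearest to Phldb1 (0.34), Serpine2 (0.38) and Dennd5a (0.39). The profiles of Snai2 and Twist2 were nearest to Ammecr1 (0.29), Mapkapk2 (0.34) and Mcl1 (0.36), and to Phip (0.24), Rock1 (0.24) and Prpf4b (0.27). The samples of a profile share their library and its depth, so these values carry no p.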

How the data were processed

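Mouse polyA RNA was sequenced from 6 MPNST, 6 plexiform neurofibromas and 6 trigeminal nerves (KAPA stranded mRNA libraries, per the labels' protocols). The deposited table gives estimated counts per gene symbol, with 51290 genes and no scaling. Salmon 1.4.0, FastQC, DESeq2 and GRCm39 appear in the submitters' processing notes, but neither an annotation nor a strand setting is named there. Salmon divides reads that fit several transcripts by estimate, so paralogs and overlapping genes can share reads.

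The estimated counts were rounded. Each comparison was fitted on its own 12 libraries with edgeR 4.0.16 (filterByExpr, TMM, glmQLFit, glmQLFTest, two-sided, R 4.3.3), with Benjamini-Hochberg adjustment over all genes tested, and the code was tested on simulated data. Levels are CPM scaled by TMM over all 18 libraries. Levels per kilobase used exon lengths of GENCODE M21, and promoters came from RefSeq on GRCm38.p6. Alternatives were DESeq2 1.42.0, limma-voom 3.58.1, other scalings, filters and thresholds, single libraries left out, and the MPNST libraries 2 and 6 or 2, 3 and 6 left out. Leaving out MPNST libraries 2, 4 and 6, recounting the gene lists without 2 libraries, and refitting their named genes without each library, were added after seeing the data.

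The members and gene lists were chosen with earlier results of these data known. Besides all 10 factors, the text names Nf1, Cdkn2a, Postn, Cdh1, Vim and Cdh2, of each list up to 3 called genes with the smallest p in MPNST against neurofibroma and up to 2 in neurofibroma against nerve, the leading called gene of the minority direction, and the 3 genes nearest each factor in profile with a mean of at least 1 CPM. Genes that changed call without some libraries, and the range of the Id genes, were named after their values were seen. The labels do not say whether samples of the neurofibroma and nerve groups came from separate animals, so p-values measure the spread between these samples. Library numbers are names only. No 2 libraries of a group were identical. SDs and SEs cover the spread between libraries, and limits from a count of 0 cover counting error only. Some Schwann cell markers of the planned list are not reported here and were left out of its sum.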

Additional observations from a re-analysis of the deposited data

Results flagged for a closer look

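In 5 of the 30 sets formed by a factor and a group, the highest library stood apart from the other 5 by Dixon's test. The test's rate of about 1 in 20 holds for independent sets of normally distributed values. Here it was run on CPM without a log scale, and the sets share libraries. The count of 5 can therefore not be set against that rate. The gap to the next library was 0.728 of the range for Snai1 in MPNST library 4 (32.3 CPM, next 10.3), 0.821 for Twist1 in MPNST library 4 (66.4 CPM, next 12.2) and 0.699 for Prrx1 in MPNST library 4 (573 CPM, next 178). The same library thus stood apart for 3 factors. In neurofibroma library 2 the gap was 0.703 of the range for Twist2 (1.91 CPM, next 0.805) and 0.736 for Zeb1 (171 CPM, next 127). The cause was not tested.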

How the results depend on the processing

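In MPNST against neurofibroma, 249 values of the factors under 25 alternatives gave 208 with the same direction and side of the threshold, 28 weaker, 12 stronger and 1 reversed (Meox1, -0.063 without MPNST library 4 and 0.573 at most without another). Against nerve the counts were 231, 8, 10 and 0 of 249 values. In neurofibroma against nerve they were 173, 23, 7 and 3 of 206 values under 23 alternatives, the reversals being Prrx2 without nerve library 3 (0.027), nerve library 6 (0.045) and nerve library 6 with neurofibroma library 1 (0.059), against -0.303 without neurofibroma library 2. Genes called in MPNST against neurofibroma numbered 6948, against 4063 at an adjusted p below 0.01, 2472 by glmTreat against a log2 change of 1, 11247 without MPNST libraries 2, 3 and 6 and 10965 without libraries 2, 4 and 6, where fewer samples entered the fit. The 6 factors called became 2 at 0.01 and 1 by glmTreat. Against nerve 7534 genes became 4633 at 0.01 and 3125 by glmTreat. In neurofibroma against nerve 2295 genes became 520 at 0.01, 1438 with no filter, 13 by glmTreat, 2 in a single fit of all 18 samples, 3509 by DESeq2 and 4026 by limma-voom, and 1147 (without neurofibroma library 4) to 3817 (without nerve library 6) when 1 library was left out. The 4 factors called there became 2 at 0.01, 0 by glmTreat (2 at an unadjusted p under 0.05), 0 in the single fit (5 unadjusted) and 2 to 5 without 1 library, and DESeq2 and limma-voom called 6 and 5. The single fit shares the wide MPNST spread with the other groups. The median of all genes moved from 0.22 to 0.17 with RLE scaling and -0.01 with limma-voom in MPNST against neurofibroma. No paired analysis was possible because library numbers only name the samples. Low counts limit Twist2 and, in nerve, Snai2.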
